A study of Mus musculus with 6 samples.

Results

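Mitochondrial complex I (NADH:ubiquinone oxidoreductase) is the largest enzyme of the respiratory chain and is built from many separately encoded subunits, and the nuclear genes of those subunits were followed here in mouse haematopoietic stem cells with and without Hlf. Members were every gene whose symbol is Nduf followed by a, b, c, s or v and a number, together with Ndufab1. This gave 37 genes of 23574 listed, and the rule used no measured value. Subunit Ndufb1 and the subunits encoded in mitochondrial DNA were not analysed here.

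RNA was sequenced from sorted stem cells of C57BL/6 mice of 2 genotypes, wild type and Hlf knockout, with 3 libraries each and 3000 cells per library. The sort kept cells without lineage markers, CD34 or Flt3 and with Sca-1 and c-Kit, so that both genotypes passed the same gate. Hlf encodes hepatic leukaemia factor, one of the PAR bZIP transcription factors. The comparison asks how expression in knockout stem cells departs from that of wild-type littermates, and the sources used here give neither the part of Hlf removed nor the age of the mice. Whether libraries stand for separate animals is not stated, so p-values here cover spread among libraries, which may be technical in part.

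Complex I takes electrons from NADH, passes them through a flavin and a chain of iron-sulphur clusters to ubiquinone, and couples this to proton pumping across the inner mitochondrial membrane. It has the shape of an L, with a peripheral arm in the matrix that carries the redox centres and a membrane arm that pumps protons. Long-term stem cells are known for a low rate of mitochondrial respiration and for relying on respiration more as they begin to differentiate.

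The libraries held between 8346335 and 11998296 counts, with all 3 knockout libraries above the wild-type ones. Hlf stood at 1370.0, 1662.2 and 1114.2 CPM (a count scaled to the size of its library) in wild-type libraries 1, 2 and 3 and at 28.3, 37.6 and 37.3 CPM in the knockout libraries. It fell, with a log2 fold change of -5.33 (SE 0.26, edgeR adjusted p = 1.91e-06), and all later log2 fold changes are likewise knockout against wild type. Of 9 tested stem-cell markers, Hlf included, 4 had positive and 5 negative log2 fold changes, and Hlf alone passed edgeR's adjusted threshold. Gata2 (0.10), Slamf1 (0.17), Hoxb5 (0.21) and Ctnnal1 (0.56) were the positive ones, and Fgd5 (-1.02), Procr (-1.69), Mecom (-0.83) and Meis1 (-1.54) the other negative ones. Mecom and Meis1 have 2 listed transcripts each, so their counts may not stand for the whole gene. Ly6a and Kit, which encode Sca-1 and c-Kit, also have several and stood at 0.0 to 0.1 CPM, too low to test, and such genes mostly have very few counts in these files (median 3 counts over all libraries for such genes, against 79 for genes with 1 transcript). Wild-type library 3 held 3328.3 summed CPM of granulocyte and monocyte markers, against 624.2 and 635.6 in wild-type libraries 1 and 2 and 321.3 to 486.6 in knockout.

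Sequence shared by the promoters of the members is shown first, with letters known to be bound by PAR bZIP factors and by regulators of respiratory genes, each searched on both strands. RefSeq promoter windows (build GRCm38.p6, 250 bases before to 50 after the start) matched 33 of the 37 members. The PAR bZIP letters TTACGTAA were in 0 of the 33, against 0.13% of all 27025 genes with a window, and the looser TTACNTAA also in 0, against 2.72%. Letters bound by NRF1, a transcription factor of nuclear respiratory genes, were searched as GCGC, any base and TGCGC, and were in 7 of 33 members (21.2%), against 5.19% of all genes. Ndufb4 held 3 such matches, Ndufa5 2 and the other genes 1 each. The match nearest the start of each gene is shown on the gene's strand, with 10 bases on either side and the match in capitals.

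Ndufa11, chr17:56717692-56717721 (+): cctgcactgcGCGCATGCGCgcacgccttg
Ndufa5, chr6:24527697-24527726 (-): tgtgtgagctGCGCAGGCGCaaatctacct
Ndufa6, chr15:82354249-82354278 (-): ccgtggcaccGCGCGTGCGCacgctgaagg
Ndufa8, chr2:36049349-36049378 (-): ctagagcagtGCGCTTGCGCgtcgctggag
Ndufb4, chr16:37654371-37654400 (-): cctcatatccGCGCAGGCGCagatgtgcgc
Ndufs5, chr4:123718265-123718294 (-): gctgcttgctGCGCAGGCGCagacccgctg
Ndufs6, chr13:73328479-73328508 (-): cgactgctgtGCGCCTGCGCcggcacttgg

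The letters AAGATGGC, bound by YY1, were also in 7 of 33 members (21.2%), against 3.19% of all genes. In these 7 genes the match began between base 23 and base 39 after the annotated start, on the gene's own strand. The matches are shown in capitals with up to 11 bases on either side.

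Ndufa3, chr7:3617384-3617413 (+): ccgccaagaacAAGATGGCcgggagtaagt
Ndufa9, chr6:126849097-126849126 (-): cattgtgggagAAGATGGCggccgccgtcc
Ndufb8, chr19:44555393-44555415 (-): cggagaaggtgAAGATGGCtgcc
Ndufc1, chr3:51408915-51408944 (-): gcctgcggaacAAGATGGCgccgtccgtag
Ndufs4, chr13:114388045-114388070 (-): ttgcctacaggAAGATGGCggcggtc
Ndufs6, chr13:73328433-73328460 (-): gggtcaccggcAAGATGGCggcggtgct
Ndufs7, chr10:80249462-80249491 (+): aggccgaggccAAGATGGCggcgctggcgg

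Of the other letters searched, CCGGAAG of ETS factors was in 4 of 33 members (12.1%, against 9.93% of all genes) and TGACCTTG of the oestrogen-related receptors in 1 (3.0%, against 1.76%). Ndufs6 was the 1 member that held both the NRF1 and the YY1 letters. Such matches describe the sequence and are not measured binding.

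Of the 37 members, 31 passed the filter on low counts and were tested. Of these, 30 have 1 listed transcript, and Ndufv3 has 2. The other 6 members could not be measured. Ndufs1, Ndufs8 and Ndufv2, which carry iron-sulphur clusters, and the peripheral subunits Ndufa7 and Ndufs6 each have several listed transcripts and had between 0 and 8 counts over all libraries. Ndufs5, a membrane-arm subunit with 1 listed transcript, had 0 counts in every library, while its annotated pseudogene Ndufs5-ps had 43 to 142 counts per library. The sources used here do not say how the authors' counting shared reads between a gene and its near-identical copies, and a count of 0 is not read as absence.

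Taken per length, the members with 1 transcript stood at a median of 104.2 RPKM (CPM divided by the kilobases of the transcript in GENCODE), averaged over the 6 libraries. The range ran from 40.6 RPKM for Ndufab1 to 368.4 RPKM for Ndufa4. Ndufa4, long counted as a complex I subunit and now assigned to complex IV, was the most abundant on this scale, between 295.7 and 418.5 RPKM in single libraries. Next came Ndufc2, a small subunit of the membrane arm, with a mean of 229.2 RPKM and a range of 164.0 to 285.7 RPKM. Ndufc1, its neighbour in the enzyme, averaged 176.4 RPKM with a range of 106.0 to 259.3 RPKM, and the membrane-arm subunit Ndufa11 averaged 175.8 RPKM. The last 2 did not differ beyond the spread of Ndufc1. Ndufab1 was assigned a transcript of 3479 bases, the longest of the set, where the median member had 745 bases, and its low RPKM is taken over that length.

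No complex I gene passed edgeR's test between genotypes (0 of 31 at an adjusted p under 0.05, smallest adjusted p = 0.65), where 0.0098% of the 10204 tested genes did, which is Hlf alone. DESeq2 called 0 of the 31 members and 1.19% of 14340 genes, and limma-voom called 0 members and 0.0098% of genes. At an unadjusted p under 0.05, edgeR gave 1 member with a higher value in knockout (2.63% of all genes did so) and 0 with a lower one (4.65% of all genes). The members' values were more often above 0 than those of all genes. Of the 31, 22 had a positive log2 fold change (71.0%, against 47.2% of all tested genes) and the median was 0.13, against -0.05 for all tested genes.

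**Figure D1:**
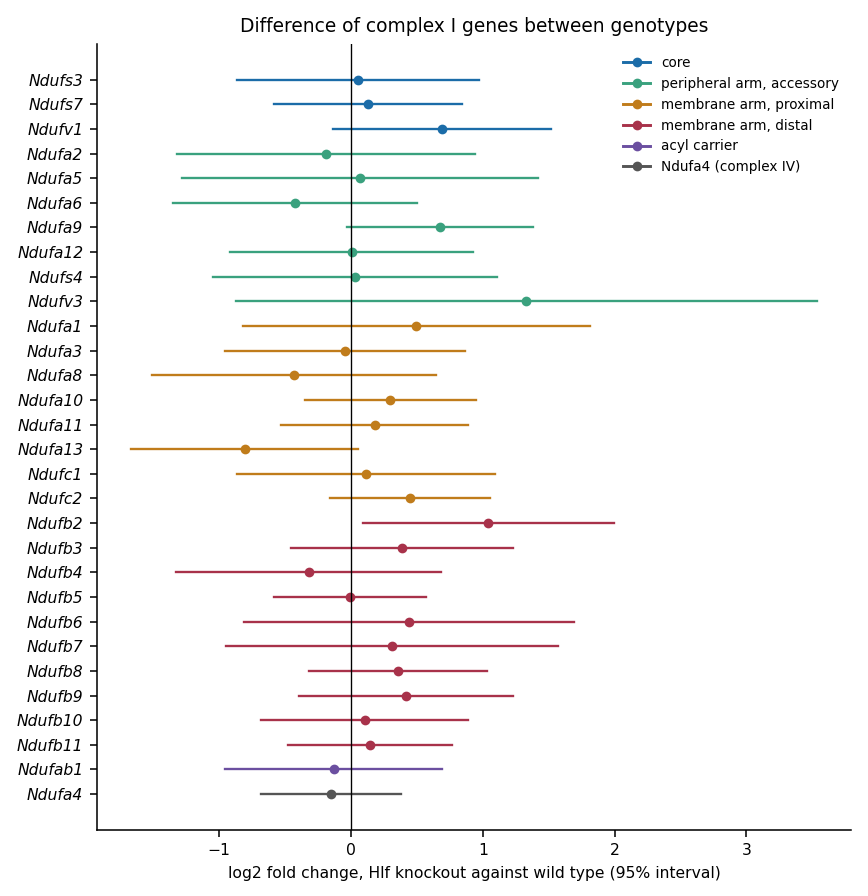
Log2 fold change of 30 tested complex I genes, Hlf knockout against wild type, with its 95% interval from edgeR, coloured by place in the enzyme (3 libraries per genotype). The interval of Ndufb2 lies above 0, and all other intervals drawn include 0.

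For 11 of the 30 members with 1 transcript, the 95% interval lay inside -1 to 1, so that a 2-fold difference in either direction was outside it. For 14 the interval reached above 1, and for 7 it reached below -1. In bulk RNA, fewer cells of a type and less RNA per cell cannot be told apart.

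Ndufb2, a small subunit of the distal membrane arm, had the largest difference among members with 1 transcript. It stood at 21.9, 36.9 and 38.9 CPM in wild-type libraries 1, 2 and 3 and at 58.4, 66.6 and 76.6 CPM in the knockout libraries. Every knockout library was above every wild-type library. The mean was 32.6 ± 9.3 CPM for wild type and 67.2 ± 9.1 CPM for knockout (SD, n = 3 each). The log2 fold change was 1.04 (SE 0.44, 95% interval 0.09 to 2.00), with an edgeR unadjusted p of 0.0346 and an adjusted p of 0.65. DESeq2 gave an adjusted p of 0.17. With each library left out in turn the value ran from 0.84 to 1.19. The 250 bases before its start, given because it was the 1 member with an unadjusted p under 0.05, hold none of the 6 motifs searched.

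Ndufb2, chr6:39592315-39592564 (+), build GRCm38.p6: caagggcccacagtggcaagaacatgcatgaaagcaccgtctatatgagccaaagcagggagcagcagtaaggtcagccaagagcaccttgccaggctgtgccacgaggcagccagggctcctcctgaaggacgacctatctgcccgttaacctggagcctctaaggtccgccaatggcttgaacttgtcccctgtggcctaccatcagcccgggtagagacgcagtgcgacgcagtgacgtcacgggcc

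In 4 of the 31 members (12.9%) every knockout library was above every wild-type library, where 7.52% of all tested genes did so. In 0 of 31 was every knockout library below every wild-type one, against 6.85% of all tested genes. Beside Ndufb2 the 4 were Ndufv1, Ndufa9 and Ndufv3.

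Ndufv1 binds the flavin and accepts electrons from NADH at the tip of the peripheral arm. Its values were 100.4, 76.3 and 40.9 CPM for wild type against 108.0, 122.7 and 120.2 CPM for knockout. Wild-type library 1 lay just under the lowest knockout library and wild-type library 3 far below it. This gave a log2 fold change of 0.69 (SE 0.38, edgeR adjusted p = 0.71), or 0.41 without wild-type library 3.

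Ndufa9, an accessory subunit with a reductase-like fold where the arms meet, stood at 120.1, 77.3 and 141.3 CPM in wild type. In knockout it stood at 145.3, 159.8 and 236.4 CPM. The groups did not overlap, though wild-type library 3 and knockout library 1 were close. Its log2 fold change was 0.68 (SE 0.32, 95% interval -0.03 to 1.39, edgeR adjusted p = 0.68), and 0.44 without knockout library 3.

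Ndufv3, a small subunit at the tip of the peripheral arm, was the least abundant tested member and has 2 listed transcripts, so its counts may not stand for the whole gene. Its wild-type libraries held 5, 127 and 86 counts, and its knockout libraries 171, 170 and 315 counts. Wild-type library 1 stood far below all others. This gave a log2 fold change of 1.33 (SE 1.01, 95% interval -0.87 to 3.53), or 0.80 without wild-type library 1.

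**Figure D2:**
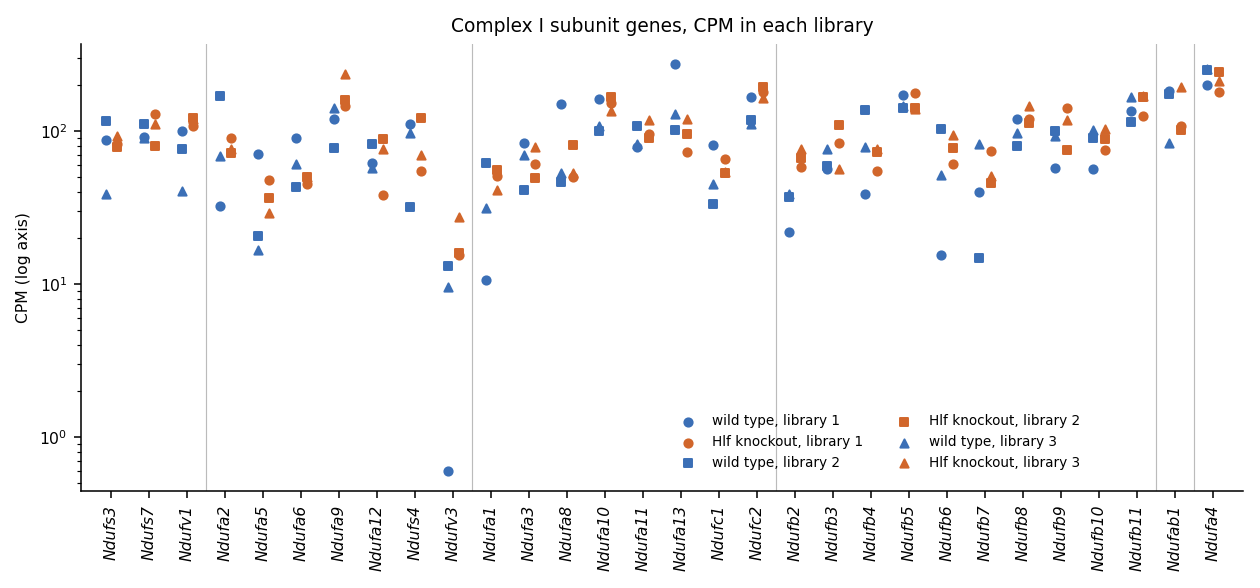
CPM of 30 tested complex I genes in each library on a log axis, grouped by place in the enzyme (from left: core, peripheral accessory, proximal membrane arm, distal membrane arm, the acyl carrier Ndufab1, and Ndufa4). Blue marks are wild type and orange marks Hlf knockout, with the shape giving the library number, and the blue marks of Ndufa1, Ndufa2, Ndufb6, Ndufb7 and Ndufv3 spread over more than 5-fold.

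The core subunits carry the redox centres and the ubiquinone site and are conserved from bacteria. Beside Ndufv1, described above, Ndufs7, a subunit of the ubiquinone site, stood at 0.13 (SE 0.32), with 92.2, 111.3 and 90.3 CPM in wild type, and in knockout at 130.0, 79.6 and 112.2 CPM. Ndufs3, at the base of the peripheral arm, stood at 0.06 (SE 0.42), with 87.5, 117.3 and 39.1 CPM in wild type, and in knockout at 82.1, 79.0 and 92.6 CPM. For both genes the wild-type and knockout libraries overlapped.

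Accessory subunits of the peripheral arm stabilise the core. Of 9 listed, 7 were tested, 5 with positive and 2 with negative values, and the median was 0.03. Ndufs4, whose loss in mice gives a model of Leigh syndrome, a mitochondrial encephalopathy, was at 0.03 (SE 0.49), and Ndufa12 at 0.01 (SE 0.42). The values of Ndufs4 were 111.2, 31.9 and 98.1 CPM for wild type against 55.3, 121.5 and 69.6 CPM for knockout, a wide spread in both genotypes. Ndufa6, of the LYR family of proteins that bind the acyl carrier, stood at -0.42 (SE 0.42), and at -0.09 without wild-type library 1. Its knockout libraries lay together at 45.1, 49.9 and 50.3 CPM, inside the wild-type range of 43.2 to 90.5 CPM. Ndufa5, another accessory subunit of this arm, held 71.0, 20.5 and 16.8 CPM in wild type, and its knockout libraries, at 47.8, 36.8 and 29.0 CPM, all lay within that range (log2 fold change 0.07, SE 0.62). Ndufa2, with a thioredoxin-like fold, stood at 32.4, 171.1 and 68.6 CPM in wild type, and in knockout at 90.7, 71.8 and 76.4 CPM. Its log2 fold change of -0.19 was 0.67 without wild-type library 2.

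In the proximal membrane arm, next to the ubiquinone site, 8 of 9 members were tested, 5 positive and 3 negative. Ndufa13, also known as GRIM-19, had the lowest value of all members at -0.80 (SE 0.39, 95% interval -1.67 to 0.06, edgeR adjusted p = 0.69). Wild-type library 1 held 274.6 CPM, where wild-type libraries 2 and 3 held 101.6 and 130.6 CPM and knockout 73.4, 96.6 and 120.1 CPM. Without wild-type library 1 the value was -0.25. Ndufa8, a cysteine-rich subunit on the intermembrane side, had the same high library, with 150.0 CPM in wild-type library 1 and 46.4 to 80.9 CPM elsewhere, and went from -0.43 to 0.32 without it. Ndufa1, a small subunit of this arm, was low there, at 10.7 CPM against 31.5 to 62.4 CPM in the other libraries, and went from 0.50 to 0.08. Ndufc2, at 0.45 (SE 0.28), and Ndufa10, with a nucleoside-kinase-like fold, at 0.30 (SE 0.30), stayed positive with each library left out, from 0.34 to 0.67 and from 0.18 to 0.55. For Ndufc2, wild-type libraries held 167.3, 117.8 and 112.0 CPM, and knockout libraries 181.2, 195.2 and 165.9 CPM. Wild-type library 1 lay just above the lowest of these, and wild-type libraries 2 and 3 well below.

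All 10 listed genes of the distal membrane arm were tested, 8 with positive values and a median of 0.33. They encode the small subunits around the proton pumps farthest from the peripheral arm. Ndufb9, also a LYR protein, stood at 0.42 (SE 0.37), Ndufb3 at 0.39 (SE 0.39) and Ndufb8 at 0.36 (SE 0.31). With each library left out in turn these ran from 0.22 to 0.65, from 0.15 to 0.61 and from 0.23 to 0.53. Ndufb6 stood at 15.5, 103.9 and 52.0 CPM in wild type, and in knockout at 61.4, 77.4 and 94.4 CPM, so the wild-type libraries lay on both sides of the knockout ones. Its log2 fold change of 0.44 was 0.01 without wild-type library 1 and 1.21 without wild-type library 2. Ndufb7, a cysteine-rich subunit on the intermembrane side, held 40.3, 14.9 and 83.0 CPM in wild type, again on both sides of its knockout libraries at 74.1, 46.1 and 51.3 CPM (0.31, SE 0.58). Ndufb4 (-0.32, SE 0.46) and Ndufb5 (-0.01, SE 0.26) were the 2 negative members. Ndufb5 was the steadiest gene of the arm in wild type, at 172.0, 142.5 and 146.2 CPM, and stood at 177.2, 141.2 and 140.2 CPM in knockout.

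The acyl carrier Ndufab1, which sits in both arms and also serves mitochondrial fatty acid synthesis, stood at 184.1, 175.2 and 84.2 CPM in wild type, and in knockout at 107.4, 102.5 and 195.1 CPM. Both genotypes held high and low libraries (log2 fold change -0.13, SE 0.38). Ndufa4 stood at 201.7, 252.8 and 255.3 CPM in wild type, and in knockout at 180.4, 244.8 and 213.5 CPM, with a log2 fold change of -0.15 (SE 0.24), or -0.04 without knockout library 1.

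Summed over all members, complex I transcripts made up 2968.3, 2851.1 and 2626.5 CPM in wild-type libraries 1, 2 and 3 and 2899.7, 3088.7 and 3250.3 CPM in knockout. The genotypes overlapped, since wild-type library 1 was above knockout library 1. The means were 2815.3 ± 173.7 and 3079.6 ± 175.5 CPM (SD, n = 3 each), a ratio of 1.09. Without Ndufa4, now assigned to complex IV, they were 2578.7 ± 198.5 and 2866.7 ± 160.0 CPM, a ratio of 1.11. The 6 members that could not be measured add next to nothing to either sum. The mean log2 CPM of the 30 tested single-transcript genes, which weights each gene alike, ran from 6.25 to 6.31 in wild type and from 6.44 to 6.58 in knockout. Over all tested genes it ran from 4.48 to 4.81 in wild type and from 4.69 to 4.73 in knockout.

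**Figure D3:**
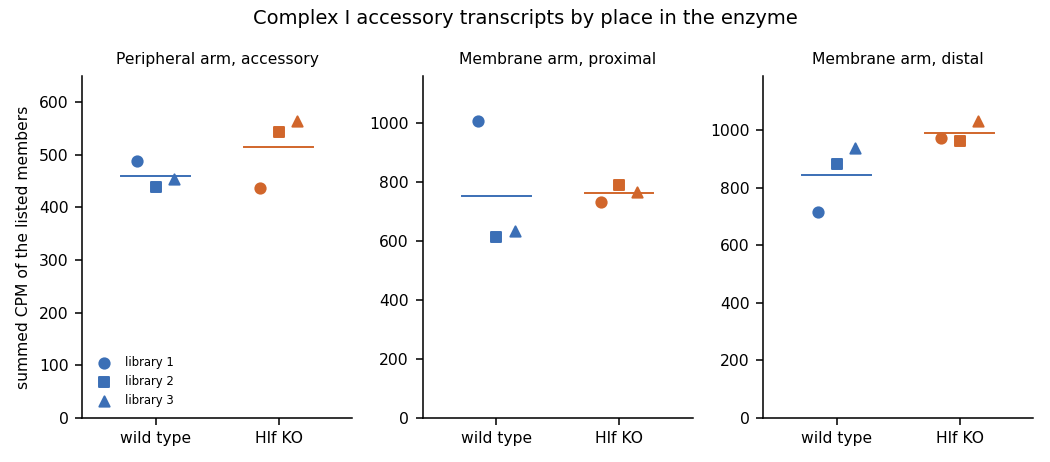
Summed CPM of the listed accessory genes of complex I in each library, by place in the enzyme (marks are libraries, lines are means of 3, each axis starts at 0). Wild-type library 1 is the highest for the proximal membrane arm, at 1007.4 CPM, and the lowest for the distal membrane arm, at 714.4 CPM.

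The sums by place in the enzyme did not order the wild-type libraries alike. Wild-type library 1 held 1007.4 CPM of proximal membrane-arm transcripts, where wild-type libraries 2 and 3 held 611.8 and 634.3 CPM and knockout 732.3 to 789.9 CPM. For the distal membrane arm it held 714.4 CPM, the lowest of all, where wild-type libraries 2 and 3 held 881.4 and 936.9 CPM and knockout 961.5 to 1033.0 CPM. Single genes did not order the wild-type libraries alike either. Wild-type library 1 was the lowest library for 10 of the 31 tested members (32.3%, against 29.5% of all tested genes). It was the highest for 6 (and for 2481 of all 10204 tested genes). Wild-type library 2 was likewise the lowest for 10 (against 21.0% of all tested genes) and the highest for 6 (2100 of the 10204). Wild-type library 3 was the lowest for 6 (19.4%, against 12.7%). Knockout libraries 1, 2 and 3 were the lowest for 3, 1 and 1 members (9.7%, 3.2% and 3.2%, against 10.8%, 13.4% and 12.6%).

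Variation between libraries was larger in wild type for most members. The median coefficient of variation of the 30 single-transcript genes was 34.9% in wild type and 15.7% in knockout, and 23 of the 30 (76.7%) varied more in wild type. Tested genes of the same range of mean CPM, 4220 in all, had medians of 36.4% and 22.4%, and 72.2% of them varied more in wild type, so this share was near that of other genes. Ndufb6, Ndufa1, Ndufb7 and Ndufa2 differed by 6.69, 5.84, 5.58 and 5.27 times between their highest and lowest wild-type library. In knockout the largest such ratio of a single-transcript member was 2.32, for Ndufa12.

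**Figure D4:**
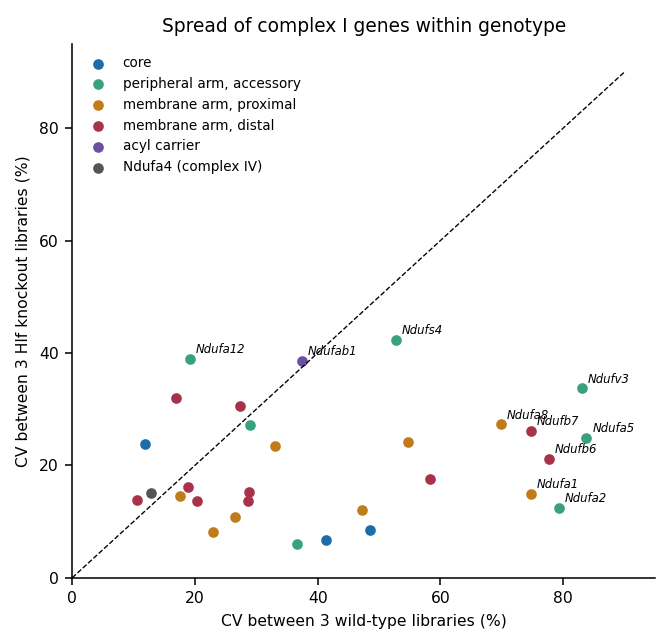
Coefficient of variation of CPM between the 3 libraries of each genotype for 30 tested complex I genes, wild type on the horizontal and Hlf knockout on the vertical axis, with a dashed line where they are equal. Most genes lie below the line, and Ndufa5, Ndufv3 and Ndufa2 have the largest wild-type values, at 83.8%, 83.0% and 79.3%.

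Length and abundance showed little rank correlation with the members' values. Spearman's rho of the log2 fold change with transcript length was -0.08 and with mean CPM -0.01, across 30 genes that share the same libraries and are not independent replicates. The 5 tested members with the NRF1 letters had log2 fold changes of -0.43 to 0.18 with a median of -0.32. Those with a window but without the letters had a median of 0.14. With a library left out, the median of the 5 ran from -0.37 to 0.11, highest without wild-type library 1. For the YY1 letters the median was 0.12 in 6 members and 0.12 in the others. With a library left out, that of the 6 ran from 0.05 to 0.44, again highest without wild-type library 1. Medians of the members without the letters were taken with all libraries alone, so the left-out values have no counterpart.

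Genes that act beside the subunits were read from lists. Assembly factors of complex I, which join the subunits and do not remain in the enzyme, had 7 positive and 8 negative values among 15 tested, with a median of -0.04, and 0 passed edgeR's test (0 at an unadjusted p under 0.05 as well). Those of smallest p were Acad9 at -0.59 (SE 0.45) and Ndufaf4 at 0.62 (SE 0.48). Listed nuclear genes of complexes II to V had 28 positive values of 37 tested (75.7%, against 47.2% of all tested genes) and a median of 0.24. The list does not hold every subunit, leaves out Ndufa4 and includes Atpif1, which encodes an inhibitor of complex V. Among these 37, 0 passed edgeR's test and 2 had an unadjusted p under 0.05, both higher in knockout (2.63% of all tested genes did so). In complex II, all 4 subunits were positive. Their summed level was 652.5 ± 79.8 CPM for wild type and 906.0 ± 40.9 CPM for knockout (SD, n = 3 each). In this sum every knockout library was above every wild-type one. By single gene that held for Sdha and Sdhc (and for 7.52% of all tested genes), while the other complex II subunits overlapped between genotypes. The summed levels of complexes III, IV and V overlapped between genotypes, with ratios of 1.14, 1.11 and 1.16, where that of complex II was 1.39. Complex II passes electrons from succinate to ubiquinone, the same acceptor that complex I uses.

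Other cells and the cell cycle were followed by markers. Genes of DNA replication had positive values in 13 of 13 tested members, and their summed level ran from 2200.5 to 2642.0 CPM in wild type and from 3064.4 to 3979.1 CPM in knockout. Megakaryocyte markers had 5 positive values of 6, with 311.1 to 546.1 summed CPM in wild type against 713.8 to 918.0 CPM in knockout. Gp1bb stood at 0.0 CPM in every library. Pf4 alone held 96.4 to 185.0 CPM in wild type and 353.1 to 506.5 CPM in knockout. Its log2 fold change was 1.72, beside Gp1ba (2.40), Gp9 (1.36), Itga2b (0.50), Vwf (0.08) and the negative Ppbp (-1.955). T and NK cell markers had 5 positive values of 7, with 166.3 to 255.2 summed CPM in wild type against 367.7 to 662.0 CPM in knockout, and Cd8a at 0.0 CPM. In that list Nkg7 (1.64), Ccl5 (2.39), Cd3g (4.09, SE 1.88), Cd3d (0.84, SE 1.47) and Il7r (0.66) had positive values. Cd3e (-1.14) and Cd4 (-2.17) had negative ones, so the CD3 genes went both ways. The higher sum in knockout lay mostly in Nkg7 and Ccl5. Nkg7 held 71.4 to 156.3 CPM in wild type and 254.0 to 462.7 CPM in knockout. For Ccl5 the ranges were 11.9 to 16.0 and 44.4 to 130.6 CPM. Cd3g was near the floor, at 0.0 to 0.7 CPM in wild type and 1.3 to 6.2 CPM in knockout. The part of these marker lists in the complex I values was not tested. B-cell markers ran the other way, from 83.6 to 162.3 summed CPM in wild type and from 34.0 to 53.5 CPM in knockout. Of 9 listed, 4 were tested, all with negative values. Most of the knockout sum was Cd79b, at 27.5 to 52.5 CPM against 18.2 to 59.1 CPM in wild type (log2 fold change -0.06). In wild-type library 3 the untested Cd79a held 53.0 CPM, against 0.5 and 1.4 CPM in wild-type libraries 1 and 2. Granulocyte and monocyte markers had negative values in 7 of 7 tested, and 0 passed edgeR's test. Of the 7, 4 had an edgeR unadjusted p under 0.05 (4.65% of all tested genes were lower at that threshold). Every knockout library was below every wild-type one for 1 of the 7, Prtn3 (6.85% of all tested genes). Prtn3 held 122.1, 70.7 and 367.0 CPM in wild type and 2.3 to 11.3 CPM in knockout. Its difference thus does not rest on wild-type library 3 alone. Without wild-type library 3, which held the most granulocyte and monocyte markers, 20 of 31 members had positive values (64.5%, against 49.8% of all tested genes). The median was then 0.15, against -0.006 for all tested genes. With all libraries thinned to the depth of the smallest, 21 of 31 were positive (67.7%, against 46.9% of all tested genes). The median was 0.13, against -0.054.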

How the data were processed

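For each library the authors deposited raw read counts, whole numbers listed by RefSeq transcript with no normalisation. TopHat and mm9 are named in the submitters' processing notes. The sources used here do not give the counting tool, strand setting or handling of shared reads. Of 30858 transcripts, 30363 were given symbols from RefSeq (GRCm38.p6) and 179 from GENCODE. Counts were summed per gene. Because the builds differ, coordinates are given for RefSeq promoter windows alone.

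Genotypes were compared with edgeR 4.0.16 (R 4.3.3) by the robust quasi-likelihood F test with TMM factors and filterByExpr (minimum count 10, minimum total 15), without covariates. P-values were adjusted by Benjamini-Hochberg over 10204 genes, with a threshold of 0.05. Standard errors came from the F statistic and 95% intervals from its t quantile. CPM used TMM-scaled library sizes, and log2 CPM a prior count of 2. DESeq2 1.42.0, limma 3.58.1 and other alternatives are in the closing section. The fit was tested on simulated data. The members, lists and naming rule (members with an unadjusted p under 0.05 or highest per length, and at most 2 genes of smallest p per list) were chosen with earlier results of these data known, and members beyond that rule were named after their values were seen. Of the tested members, 1 is counted in the totals but not reported singly here.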

Additional observations from a re-analysis of the deposited data

How the results depend on the processing

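Complex I had 0 called members under every alternative tried, 9 with all libraries and 6 with a library left out. The count of positive members ran from 21 to 24 in the alternatives with all libraries and from 20 to 24 with 1 library left out, and the median log2 fold change from 0.11 to 0.21 and from 0.15 to 0.22. Hlf stayed called, between -5.46 and -5.17 with a library left out. The count of called genes was 170 by DESeq2, 9 with no filter on low counts, 2 with the replicate block and 1 to 3 with a library left out (3 without wild-type library 1, 2 without wild-type library 2). Same-numbered libraries did not deviate together over all tested genes (correlations of -0.02, -0.01 and 0.02). This cannot decide whether the numbers mark pairs, since a pairing that moved few genes would not show in it. The sources used here do not say whether they do. With the replicate block 22 members were positive.

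Of the 31 tested members, 17 kept one sign under every alternative. With all libraries, 4 changed sign. Ndufa12 was -0.009 by DESeq2, -0.074 by limma-voom, -0.011 with RLE size factors, -0.001 with a stricter filter, -0.01 after thinning and -0.062 with the replicate block. Ndufa2 was 0.067 by limma-voom and 0.127 with the replicate block, Ndufa3 0.019 by limma-voom and 0.028 with upper-quartile factors, and Ndufb5 0.07 with upper-quartile factors and 0.016 with no filter. With a library left out, 14 changed sign. Their values ran from -0.22 to 0.302 for Ndufa12, -0.574 to 0.667 for Ndufa2, -0.28 to 0.187 for Ndufa3, -0.27 to 1.034 for Ndufa5, -0.716 to 0.324 for Ndufa8, -0.487 to 0.073 for Ndufab1, -0.097 to 0.283 for Ndufb10, -0.652 to 0.22 for Ndufb4, -0.117 to 0.098 for Ndufb5, -0.1 to 1.053 for Ndufb7, -0.126 to 0.575 for Ndufc1, -0.274 to 0.424 for Ndufs3, -0.352 to 0.351 for Ndufs4 and -0.02 to 0.32 for Ndufs7. The causes were not tested. Ndufv3 has no value in the fit of genes with 1 transcript. Over all tested genes the median log2 fold change moved from -0.051 to between -0.07 (RLE) and 0.062 (limma-voom), so a member's value is read against that. The number of libraries, 3 per genotype, limits the precision. Why 6 members had 0 to 8 counts was not tested.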

Other observations

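Other nuclear genes of mitochondria were read in the same fit. The mitochondrial ribosome translates the subunits encoded in mitochondrial DNA. Its proteins had 50 positive values of 74 tested (67.6%, against 47.2% of all tested genes) and a median log2 fold change of 0.13. Of these, 0 passed edgeR's test and 0 had an unadjusted p under 0.05. Every knockout library was above every wild-type one for 6 of the 74, against 7.52% of all tested genes. Mrpl3, at 0.87 (SE 0.40), and Mrpl13, at 0.71 (SE 0.34), had the smallest p and were among these 6. Regulators of mitochondrial biogenesis and of mitochondrial DNA had 11 positive values of 13 tested and a median of 0.21, and 0 had an edgeR unadjusted p under 0.05. Of the 13, 1 was lower in every knockout library, the mitochondrial helicase Twnk at -0.78 (SE 0.45), against 6.85% of all tested genes. Tefm, an elongation factor of mitochondrial transcription, stood at 1.45 (SE 0.83), and its libraries overlapped between genotypes. Cytosolic ribosomal proteins, short and abundant transcripts, had 41 positive values of 74 tested (55.4%) and a median of 0.02. In these, 1 gene, Rps2, had an edgeR unadjusted p under 0.05 (log2 fold change 0.41, SE 0.18), and 0 passed after adjustment.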
